A study of Homo sapiens with 7 samples.

Results

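Genes of sterol and fatty acid synthesis were examined in 2 established esophageal squamous carcinoma lines, TE5 and KYSE140, after silencing of TP63, SOX2 or CCAT1. The set was a named list of 32 genes, all of them found among the 39586 genes with counts, and membership was set by name, with no measured value in the rule. It held 4 regulators, 19 genes of the sterol branch and 9 genes of the fatty acid branch. TE5 was sequenced with a scramble (non-targeting) shRNA, TP63 shRNA, SOX2 shRNA and CCAT1 shRNA (4 libraries), and KYSE140 with a scramble shRNA, TP63 shRNA and SOX2 shRNA (3 libraries). By their titles, the libraries carried 1 shRNA per target, and KYSE140 received the same TP63 and SOX2 shRNAs as TE5. Effects of an shRNA on genes other than its target were not tested. The shRNAs were delivered by lentivirus, every culture received fetal bovine serum, and there was 1 library per condition and line, so no difference within a line has a replicate check.

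Cells make cholesterol and fatty acids from acetyl-CoA in separate branches. The mevalonate steps build farnesyl diphosphate, which is joined to squalene and converted to cholesterol, while the fatty acid branch elongates and desaturates acyl chains. Both branches are controlled by the SREBP transcription factors, which SCAP carries from the endoplasmic reticulum for cleavage when sterols are low and which INSIG1 retains there when sterols are high. Serum in culture medium is itself a source of sterols and fatty acids.

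Most of the lower genes were found in KYSE140 upon SOX2 silencing, where 15 of the 19 sterol genes were lower than in the scramble library by more than 1.5-fold, among them HSD17B7, MVD, MSMO1 and HMGCS1, against 5.46% of all genes with at least 500 counts. In TE5, the same target gave 1 such gene, against 5.52%. Upon TP63 silencing, 5 of the 32 genes were lower past 1.5-fold in each line, against 15.4% of genes with at least 500 counts in TE5 and 5.54% in KYSE140, and EBP, ELOVL6 and SCD were so in both lines. On the TPM scale, of these 3 genes EBP alone stayed past 1.5-fold in TE5, and EBP and SCD but not ELOVL6 in KYSE140. Upon CCAT1 silencing in TE5, all 32 genes were below scramble in normalized counts and 28 on the TPM scale, most by less than 1.5-fold, where 58.1% of genes with at least 500 counts were below in normalized counts.

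Several facts of the libraries bear on each of these comparisons. Estimated counts summed to between 68532611 and 98036494 per library, and each gene of the list had at least 952 counts in every library, so counting error on a log2 fold change was small (half-widths of the 95% counting intervals from 0.00761 to 0.117). The intervals cover counting error only. TP63 stood at 25.6% of scramble in TE5 and 26.1% in KYSE140 upon its own silencing. SOX2 stood at 39.5% of scramble in TE5 but at 76.9% in KYSE140 upon SOX2 silencing, so the line with the larger sterol difference had the smaller decrease of the target. SOX2 also stood at 66.4% of scramble upon TP63 silencing in TE5 and at 104% in KYSE140, and TP63 at 116% and 126% upon SOX2 silencing. CCAT1 itself was not analysed here. The scramble libraries were sequenced in other lanes than the silenced libraries of the same line, and that of TE5 on another flow cell than the other 6 libraries, so lane (and in TE5 flow cell) and silencing cannot be told apart in a comparison with scramble, whereas libraries with different shRNAs of 1 line shared a lane. Squamous markers were present in every library (summed TPM, a unit scaled for transcript length and library size, from 551 to 18820), although KRT14 stayed below 1 TPM in the TE5 libraries. Their list includes TP63 and SOX2. Summed simple-epithelium markers were above the squamous sum in each TE5 library, with 2622 against 1379 TPM in scramble. In each KYSE140 library they were below it, with 2155 against 13800 TPM in scramble. Summed leukocyte markers reached 117 TPM in TP63-silenced TE5, where CD68 was at 116 TPM. Summed hepatocyte markers reached at most 0.819 TPM and adipocyte markers at most 4.99 TPM, cell types that are rich in these enzymes.

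Promoters of the list were searched for the letters of elements known to bind factors of this pathway. RefSeq promoter sequences (GRCh38.p14, 250 bases before to 50 after the start) were at hand for 28 of the 32 genes. The sterol regulatory element TCACNCCAC, searched on both strands, was matched in full in 1 of them, SREBF2, against 1.15% of 27305 promoters. With up to 1 letter changed it was matched in 12 of 28, against 24.2% of all promoters. The CCAAT box, bound by NF-Y, a partner of SREBP at sterol promoters, was matched on either strand in 19 of 28, including 13 of 16 in the sterol branch and 4 of 8 in the fatty acid branch, against 35.7% of all promoters. The GC box GGGCGG was present in 26 of 28, against 44.6%. A match in these letters is a description of the sequence and does not show binding.

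The SREBF2 match is shown, with the CCAAT box nearest the start for 7 of the 9 genes that were lower past 2-fold upon SOX2 silencing in KYSE140, because these genes were far below scramble together. Each stretch was found once near its gene in hg19 and reads 5′ to 3′ along the gene's strand, with the element in capitals. ATTGG is the CCAAT box on the opposite strand. These genes were picked by their change, so the display holds no comparison with other genes. MVK and NSDHL, within 1.5-fold in that comparison, had 5 CCAAT matches each. IDI1 and CYP51A1, lower past 1.5-fold in it, had 0. A relation of the element to the change was not tested.
SREBF2: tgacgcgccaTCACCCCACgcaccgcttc
HMGCS1: ctaccggccgcgATTGGctgtgggagcca
MVD: ggctcgcacgggCCAATcctgtggtagcg
MSMO1: agctctcgcaggCCAATaacgacaggacg
HSD17B7: ggccgtactctgATTGGtgacgggtgagg
DHCR7: ggtccgcctccgATTGGcaggcaatcgct
SCD: aattcccttcggCCAATgacgagccggag
ACSS2: gccctccttgggATTGGgcagactctcgg

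In hg19 the SREBF2 stretch lies upstream of the annotated gene at chr22:42228966-42228994 (plus strand). Centred upstream of their genes are also the stretches of MVD at chr16:88729568-88729596 (minus), MSMO1 at chr4:166248775-166248803 (plus) and SCD at chr10:102106792-102106820 (plus). The centres of the HMGCS1 stretch, chr5:43313598-43313626 (minus), and the HSD17B7 stretch, chr1:162760488-162760516 (plus), fall in an annotated exon. Those of DHCR7, chr11:71159471-71159499 (minus), and ACSS2, chr20:33462657-33462685 (plus), fall in an annotated intron, since longer transcripts of these genes begin further upstream. The SREBF2 element is centred 129 bases before the RefSeq start, and the CCAAT boxes of MSMO1 and DHCR7 are centred 32 and 46 bases before it.

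Per length, the order of the genes differed between the lines. FDPS was the most abundant gene of the list in each of the 4 TE5 libraries, at 499, 449, 472 and 423 TPM in the order scramble, shTP63, shSOX2 and shCCAT1. DHCR7 was the most abundant in each of the 3 KYSE140 libraries, at 1924, 1714 and 841 TPM in the order scramble, shTP63 and shSOX2. SCD was at 468, 318, 443 and 383 TPM in TE5 and at 1186, 734 and 459 TPM in KYSE140. FDPS was thus above SCD in each TE5 library. These libraries are different conditions with 1 library each, so the order of FDPS and SCD has no replicate check. Among the least abundant genes were TM7SF2, from 12.2 to 36.6 TPM over all 7 libraries, and SCAP, from 23.3 to 43.2 TPM.

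The lines differed before any silencing. Between the scramble libraries, the level in KYSE140 was higher past 1.5-fold for 15 of the 32 genes and lower for 6. Among all features with at least 10 counts in either library 30.9% were higher and 36.9% lower, and 29.9% and 29.4% among those with at least 500. Features are here genes together with transcripts not assigned to a gene, so this background differs from the shares of genes given elsewhere. Sterol genes were mostly higher in KYSE140 (16 of 19, median log2 difference 0.50), and DHCR7, the last reductase of cholesterol synthesis, was 9.48-fold higher. Of all features with at least 10 counts 46.5% were higher in KYSE140, and of those with at least 500 counts 49.9%. Fatty acid genes were mostly lower in KYSE140 (6 of 9 were, median -0.65 on the log2 scale), with FADS2 5.60-fold and FADS1 4.15-fold higher in TE5. In this branch SCD (2.82-fold), ACLY (2.07-fold) and ACSS2 (1.94-fold) were higher in KYSE140. The 4 regulators were all higher in KYSE140, from 1.53-fold for SREBF2 to 3.79-fold for INSIG1.

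Changes relative to scramble are given as log2 fold changes of TMM-normalized counts, with a pseudocount of 1. All sequences of normalized counts below run scramble, shTP63, shSOX2 and shCCAT1 for TE5, then scramble, shTP63 and shSOX2 for KYSE140. Past 1.5-fold means a log2 value beyond 0.585 in either direction, and STARD4 (0.581) and FADS2 (-0.580) in TE5 upon TP63 silencing and EBP (-0.580) in KYSE140 upon SOX2 silencing lay just within it. Of the 32 genes, 25 went past 1.5-fold in at least 1 of the 5 comparisons with scramble, and 14 were below scramble in all 5. The shares of all genes for these counts were not computed. MSMO1 in TE5 upon TP63 silencing was the only value that went past 1.5-fold upwards with TMM scaling (2 values did so in that comparison with DESeq2 size factors).

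**Figure D1:**
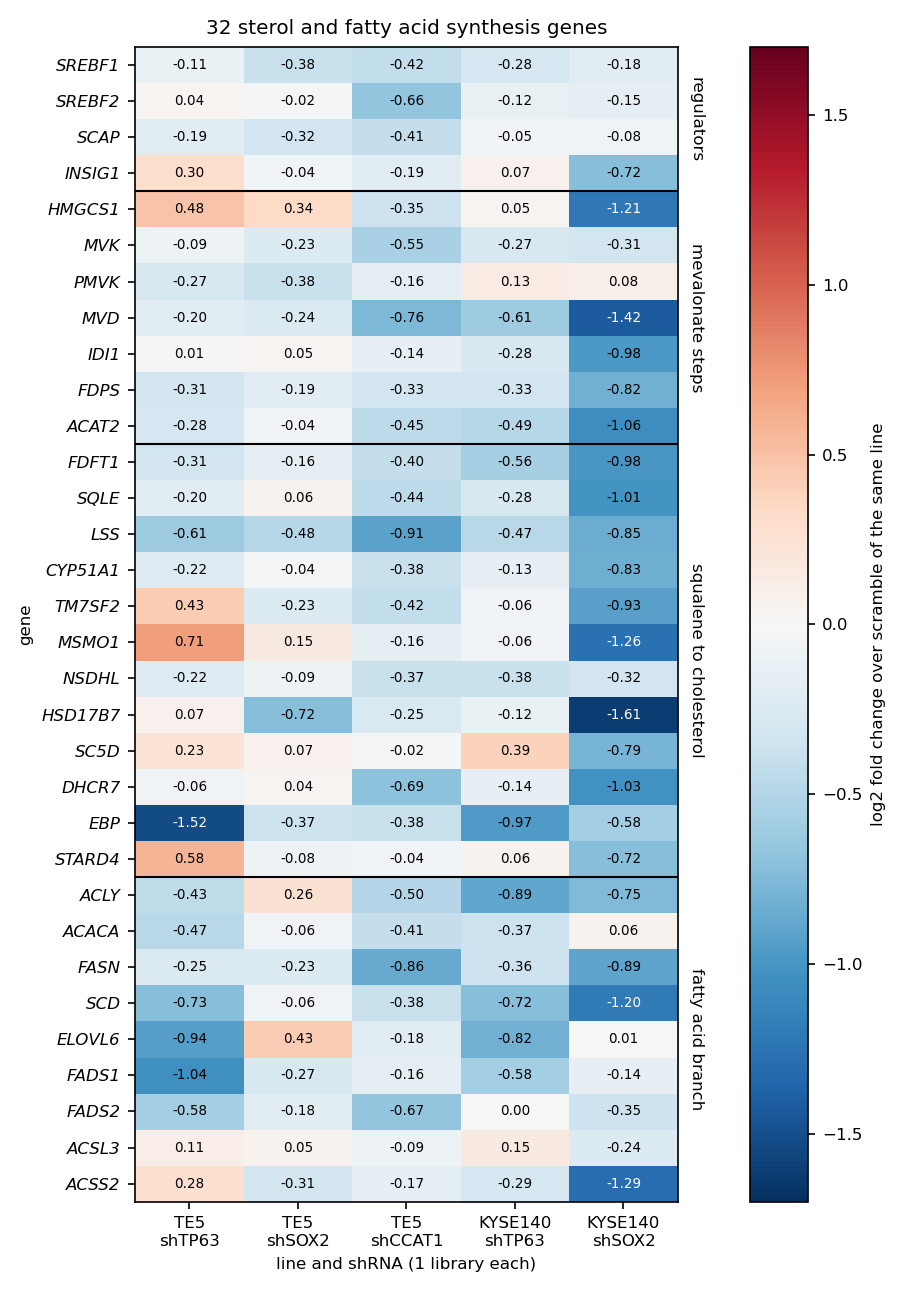
Log2 fold change of TMM-normalized counts over the scramble library of the same line for the 32 genes (rows, by role) in the 5 comparisons (columns), 1 library each; blue is lower and red is higher than scramble. The KYSE140 shSOX2 column is darkest in the sterol rows, from -1.61 for HSD17B7 to 0.08 for PMVK, while EBP is darkest in the TE5 shTP63 column at -1.52.

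Upon SOX2 silencing in KYSE140, 20 of the 32 genes were lower past 1.5-fold and 0 were higher, against 12.8% lower and 13.8% higher among the 20810 genes with at least 10 counts in either library, and 5.46% and 4.86% among the 10999 with at least 500. The sterol branch had a median log2 fold change of -0.93 and the fatty acid branch -0.35, where all genes had 0.05 and those with at least 500 counts 0.06. Past 2-fold, 9 genes of the list were lower, against 1.49% of genes with at least 500 counts. The direction of both branch medians was the same under every scaling tried, including TPM (-1.03 and -0.53) and unscaled counts (-0.76 and -0.18). Summed squamous markers were at 13800 TPM in scramble and 18820 TPM in this library; their part in the result was not tested.

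In the mevalonate steps, HMGCS1, which condenses acetyl units to HMG-CoA, had 27497, 38396, 34857 and 21603 normalized counts in TE5 and 91217, 94157 and 39337 in KYSE140. It was at 43.1% of scramble in KYSE140 upon SOX2 silencing (log2 -1.21), and above scramble upon the same silencing in TE5 (0.34). In TE5 the 4 libraries of this gene stayed within 1.5-fold of scramble.

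MVD, which forms isopentenyl diphosphate, had 10522, 9178, 8881 and 6215 counts in TE5 and 22181, 14541 and 8291 in KYSE140. The SOX2-silenced KYSE140 library was at 37.4% of scramble (-1.42), and all 5 silenced libraries were below their scramble. MVD was also past 1.5-fold upon CCAT1 silencing in TE5 (-0.76) and TP63 silencing in KYSE140 (-0.61).

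IDI1, the isomerase that follows, had 10432, 10531, 10791 and 9492 counts in TE5, and 23762, 19591 and 12035 in KYSE140. FDPS, which makes farnesyl diphosphate, had 24475, 19762, 21505 and 19454 counts in TE5 and 26996, 21527 and 15293 in KYSE140. ACAT2, which joins acetyl units at the entry of the pathway, had 8291, 6829, 8051 and 6089 counts in TE5 and 9660, 6879 and 4638 in KYSE140. For these 3 genes the KYSE140 shSOX2 library was the lowest of its line, at 50.7%, 56.7% and 48.0% of scramble, while every TE5 library lay within 1.5-fold. MVK and PMVK, the kinases of the pathway, were within 1.5-fold in all 5 comparisons, and PMVK was not lower in KYSE140 upon SOX2 silencing (0.08).

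Between farnesyl diphosphate and lanosterol, FDFT1, the squalene synthase, had 32068, 25805, 28751 and 24318 counts in TE5 and 45421, 30714 and 22956 in KYSE140. SQLE, the squalene epoxidase, had 23704, 20692, 24672 and 17460 counts in TE5, and 24901, 20554 and 12336 in KYSE140. LSS, which closes the rings to lanosterol, had 10268, 6717, 7356 and 5481 counts in TE5 and 21016, 15138 and 11662 in KYSE140. FDFT1 and SQLE were past 1.5-fold only in KYSE140 upon SOX2 silencing (-0.98 and -1.01), whereas LSS was past it there (-0.85), upon TP63 silencing in TE5 (-0.61) and upon CCAT1 silencing (-0.91). LSS was below scramble in all 5 silenced libraries.

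CYP51A1, the lanosterol demethylase, had 38751, 33371, 37780 and 29694 counts in TE5 and 24693, 22510 and 13860 in KYSE140. Of its 31-base words, 73.3% also occur in other genes of GENCODE 44, so its counts may be uncertain. For HMGCS1 and FDPS, given above, this share was 38.9% and 23.5%, so the same limit applies to their counts. Whether the sharing genes took part in the authors' alignment was not checked. MSMO1, the C4 methyl oxidase, had 9028, 14730, 10007 and 8058 counts in TE5, and 12478, 11992 and 5198 in KYSE140. TM7SF2, a C14 sterol reductase, had 1816, 2442, 1552 and 1362 counts in TE5 and 2182, 2087 and 1148 in KYSE140. CYP51A1, MSMO1 and TM7SF2 were all lower past 1.5-fold in the SOX2-silenced KYSE140 library (-0.83, -1.26 and -0.93). MSMO1 was at 163% of scramble upon TP63 silencing in TE5 (0.71) and near scramble upon TP63 silencing in KYSE140 (-0.06).

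HSD17B7, the 3-ketosteroid reductase of the pathway, had 2175, 2283, 1321 and 1823 counts in TE5 and 4015, 3698 and 1315 in KYSE140. It was the only gene of the list that was lower past 1.5-fold in both lines upon SOX2 silencing, at 60.7% of scramble in TE5 (-0.72) and 32.8% in KYSE140 (-1.61). Its most abundant transcript, of 1190 bases, was lower in both (-1.01 and -1.84), and 23.1% of its words are shared, mainly with the pseudogene HSD17B7P2. In edgeR's fit across the lines, its log2 fold change was -1.18 (SE 0.24), and the adjusted p of 0.339 did not pass the threshold of 0.1.

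In the last steps, DHCR7 had 26269, 25193, 27064 and 16230 counts in TE5 and 249037, 225376 and 121628 in KYSE140. SC5D, a sterol desaturase, had 7804, 9160, 8178 and 7689 counts in TE5, and 11535, 15073 and 6675 in KYSE140. STARD4, which carries cholesterol between membranes, had 3430, 5132, 3244 and 3326 counts in TE5 and 12204, 12724 and 7389 in KYSE140. In KYSE140 the SOX2-silenced library was the lowest for each of them (-1.03, -0.79 and -0.72), and in TE5 the same silencing left them at 0.04, 0.07 and -0.08 on the log2 scale. DHCR7 was also lower in the CCAT1-silenced TE5 library (-0.69). NSDHL, which acts with MSMO1, was within 1.5-fold in all 5 comparisons (-0.38 to -0.09).

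Among fatty acid genes, ACSS2, which makes acetyl-CoA from acetate, had 6588, 7976, 5304 and 5869 counts in TE5 and 12794, 10430 and 5230 in KYSE140. FASN, the fatty acid synthase, had 88875, 74691, 75994 and 48894 counts in TE5, and 69937, 54640 and 37683 in KYSE140. In the SOX2-silenced KYSE140 library they were at 40.9% and 53.9% of scramble (-1.29 and -0.89), together with SCD (-1.20) and ACLY (-0.75). The other 5 fatty acid genes were within 1.5-fold there, and ELOVL6 (0.01) and ACACA (0.06) were near scramble. ACSL3, which activates long-chain fatty acids, stayed between -0.24 and 0.15 in all 5 comparisons.

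SOX2 silencing in TE5 gave 1 gene of the list lower past 1.5-fold, HSD17B7, and 0 higher, against 11.6% lower and 12.9% higher among all genes with at least 10 counts and 5.52% and 3.38% among those with at least 500. The median was -0.09 in the sterol branch and -0.06 in the fatty acid branch, where all genes with at least 500 counts had -0.03. The value was lower in KYSE140 than in TE5 for 27 of the 32 genes and for 18 of the 19 sterol genes. The share of all genes with a lower value in KYSE140 was not computed. The difference between the lines has no test, since each line has 1 library per condition. In edgeR's quasi-likelihood test across the lines (cell line as block, 2 residual degrees of freedom), 0 genes of the list passed an adjusted p of 0.1, against 0.0533% of all features lower. At an unadjusted p under 0.05, 9 were lower and 0 higher, against 4.92% of features lower and 3.66% higher. DESeq2 called 3 of the 32, where it called 237 features higher and 487 lower of 16531 with an adjusted p.

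**Figure D2:**
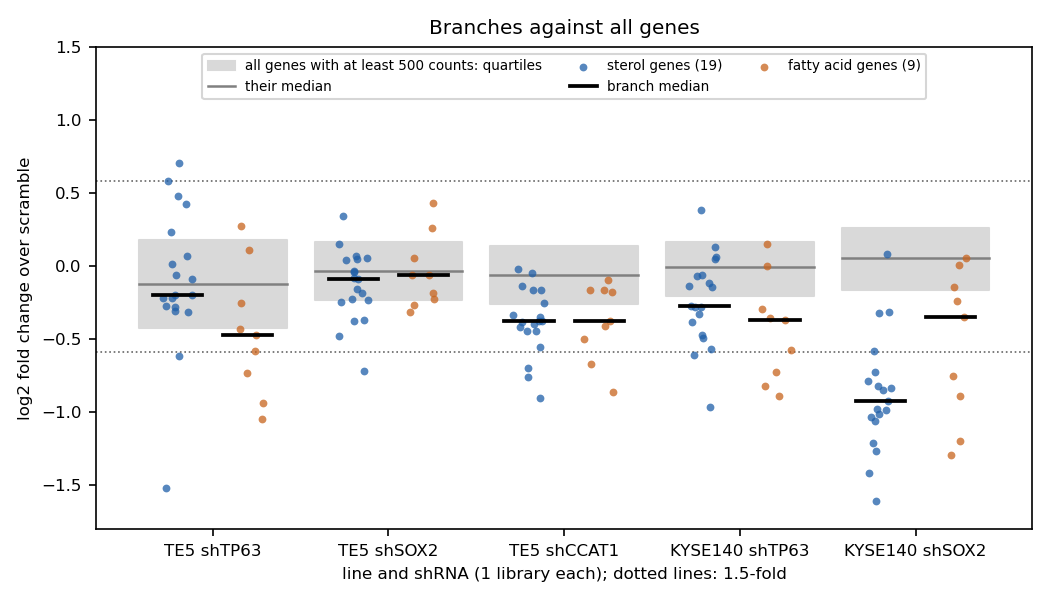
Log2 fold change over scramble (vertical axis) of the 19 sterol genes (blue) and 9 fatty acid genes (orange) in each comparison, 1 point per gene, with the branch median as a black bar and the median and quartiles of all genes with at least 500 counts in grey. The sterol median of -0.93 in KYSE140 shSOX2 lies far under the grey band, and in TE5 shTP63 the fatty acid median (-0.47) is lower than the sterol median (-0.20).

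Upon TP63 silencing in TE5, 5 genes of the list were lower past 1.5-fold (EBP, FADS1, ELOVL6, SCD and LSS) and 1 was higher (MSMO1), against 14.5% lower and 24.3% higher among genes with at least 10 counts and 15.4% and 8.39% among those with at least 500. The share of lower genes in the list (5 of 32) was thus near that of all genes. On the TPM scale 2 genes were lower and 3 higher past 1.5-fold, and without scaling 2 and 7. The sterol median was -0.20 and the fatty acid median -0.47, where all genes with at least 500 counts had -0.12, and the sterol median was above 0 on the TPM scale (0.06) and without scaling (0.24). The fatty acid median was -0.18 on the TPM scale and -0.036 without scaling. In KYSE140, 5 genes were lower (EBP, ACLY, ELOVL6, SCD and MVD) and 0 higher, against 9.89% lower and 16.1% higher among genes with at least 10 counts and 5.54% and 2.99% among those with at least 500. The medians there were -0.27 and -0.37, where all genes with at least 500 counts had -0.01, and they were above 0 only without scaling (0.31 and 0.21), which moved the median of those genes to 0.57. On the TPM scale 3 genes of the list were lower past 1.5-fold in KYSE140 (EBP, ACLY and SCD) and 0 higher. Summed squamous markers were at 1379 and 551 TPM in scramble and TP63-silenced TE5, and at 13800 and 8719 TPM in KYSE140; their part in the result was not tested.

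EBP, the isomerase that shifts the sterol double bond, had 6904, 2407, 5337 and 5312 normalized counts in TE5 and 5959, 3052 and 3986 in KYSE140. The TP63-silenced library was the lowest in each line, at 34.9% of scramble in TE5 and 51.2% in KYSE140. Its 3 main transcripts, of 904, 609 and 1775 bases, were lower together, with log2 fold changes of -1.64 to -1.25 for TE5 and -1.22 to -0.72 for KYSE140. Of the 31-base words of EBP, 33.2% also occur in other genes of GENCODE 44. In the edgeR fit over both lines EBP was at -1.22 (SE 0.20) with an adjusted p of 0.156, the lowest of the list, which did not pass 0.1.

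In the fatty acid branch, SCD, which introduces the first double bond, had 140123, 84468, 134401 and 107908 counts in TE5 and 394452, 238717 and 171690 in KYSE140. ELOVL6, which elongates palmitate, had 5224, 2728, 7036 and 4610 counts in TE5, and 3323, 1883 and 3346 in KYSE140. SCD was at 60.3% and 60.5% of scramble in the TP63-silenced libraries of TE5 and KYSE140, and ELOVL6 at 52.2% and 56.7%. In normalized counts, ELOVL6 was in both lines lowest in the TP63-silenced library, and not below scramble in the SOX2-silenced one (0.43 and 0.01), which did not hold on the TPM scale. The difference lay in its transcript of 3090 bases (-1.14 in TE5 and -1.07 in KYSE140), and less in that of 6454 bases (-0.32 and -0.05). On the TPM scale ELOVL6 was at 57.9, 50.8, 56.6 and 51.9 TPM in TE5 and at 29.6, 20.2 and 20.1 TPM in KYSE140. Its TP63- and SOX2-silenced KYSE140 libraries were thus level and both below scramble. The cause of the difference between the scales was not tested.

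FADS1, the delta-5 desaturase, had 31266, 15152, 25975 and 27979 counts in TE5 and 7540, 5058 and 6835 in KYSE140. FADS2, the delta-6 desaturase that lies beside it on chromosome 11, had 10114, 6765, 8917 and 6362 counts in TE5, and 1806, 1807 and 1418 in KYSE140. ACLY, which makes cytosolic acetyl-CoA from citrate, had 38269, 28410, 45767 and 27046 counts in TE5 and 79184, 42775 and 47080 in KYSE140. TP63 silencing left FADS1 at 48.5% of scramble in TE5 but just within 1.5-fold in KYSE140 (-0.58), and FADS2 at scramble level in KYSE140 (0.00). ACLY was past 1.5-fold in KYSE140 (-0.89) and not in TE5 (-0.43). ACACA, the acetyl-CoA carboxylase, had 13144, 9464, 12593 and 9909 counts in TE5 and 5191, 4017 and 5403 in KYSE140, with no value past 1.5-fold.

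Over both lines, edgeR's quasi-likelihood test called 0 genes of the list upon TP63 silencing, and 0% of all features in either direction. At an unadjusted p under 0.05, 6 were lower and 0 higher, against 7.76% of features lower and 5.37% higher. These were EBP, FADS1, ELOVL6, ACACA, LSS and ACLY. DESeq2 called 6 genes of the list, where it called 536 features higher and 1501 lower of 15687 with an adjusted p.

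**Figure D3:**
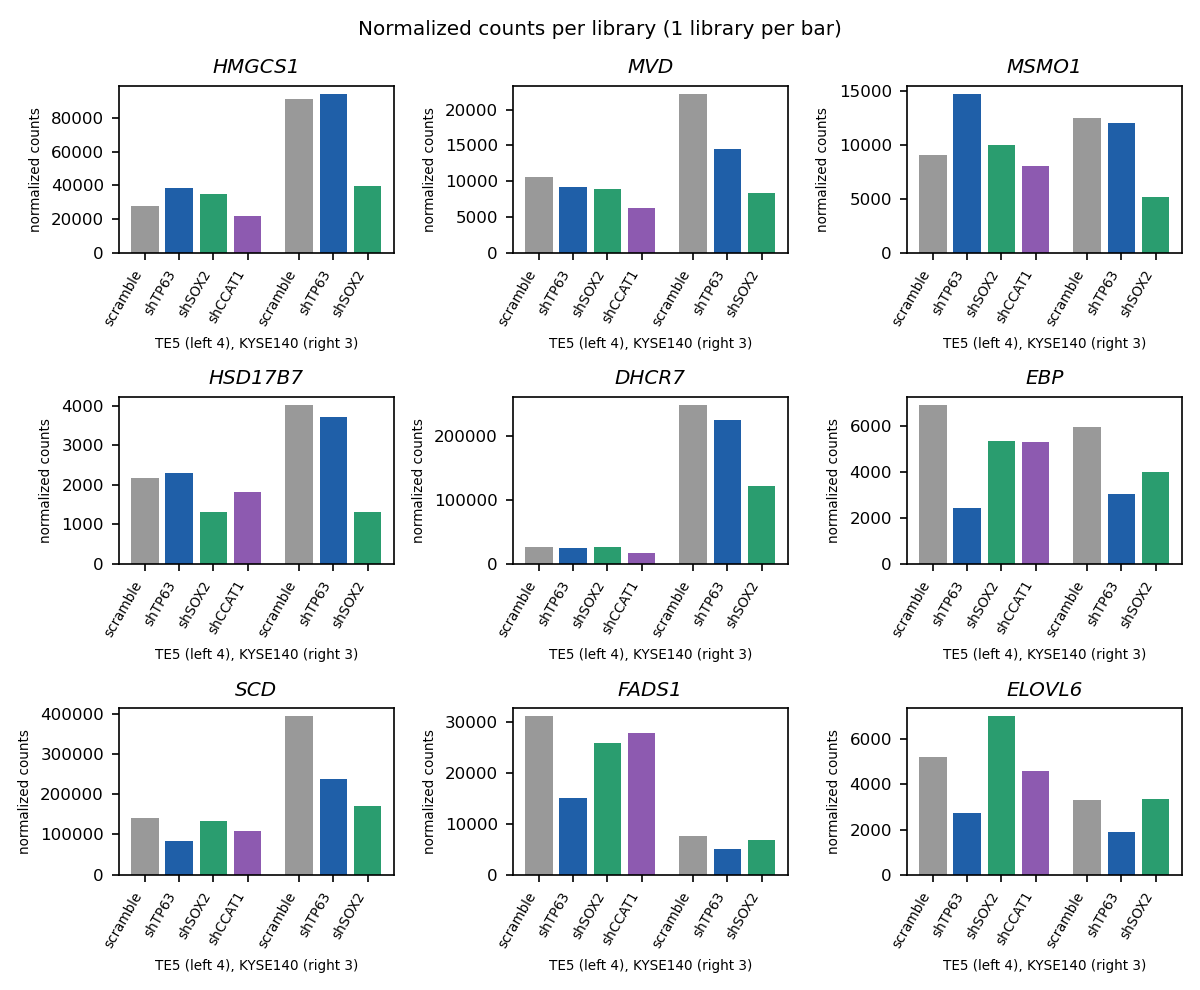
TMM-normalized counts (vertical axes, from 0) of 9 genes in the 7 libraries, 1 bar per library, without error bars because each condition has 1 library. EBP is lowest in the TP63-silenced library of both lines, at 2407 and 3052 counts, while among the 3 KYSE140 libraries HMGCS1, MVD, MSMO1, HSD17B7, DHCR7 and SCD are lowest in the SOX2-silenced one.

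Upon CCAT1 silencing in TE5, each of the 32 genes was below scramble, where 58.1% of all genes with at least 500 counts were. On the TPM scale 28 of 32 were below, where the share of all genes was not computed. Past 1.5-fold, 6 genes were lower (LSS, FASN, MVD, DHCR7, FADS2 and SREBF2) and 0 higher, against 11.5% lower and 20% higher among genes with at least 10 counts and 5.33% and 2.73% among those with at least 500. Both branches had a median of -0.38, where all genes with at least 500 counts had -0.06. Without scaling between libraries both medians were near 0 (-0.00109 and 7.55e-05), and the median of those genes was 0.32. On the TPM scale 1 of the 6 genes stayed past 1.5-fold. Summed squamous markers were at 1379 TPM in scramble and 725 TPM in this library; their part in the result was not tested.

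The CCAT1-silenced library shared its lane with the other silenced TE5 libraries. Against the SOX2-silenced one, 27 of the 32 genes were lower in it, where 53.0% of genes with at least 500 counts were. Past 1.5-fold, 6 genes of the list were lower and 0 higher, against 14.9% lower and 21.8% higher among genes with at least 10 counts and 8.16% and 7.54% among those with at least 500. Against the TP63-silenced one, 26 were lower, where 43.5% of genes with at least 500 counts were. Past 1.5-fold, 7 were lower, against 22% and 10.2%, and EBP, FADS1 and ELOVL6 were higher, against 20% and 13.2%. HMGCS1, DHCR7, FASN and SREBF2 were lower past 1.5-fold in both. These comparisons share the CCAT1-silenced library and are not independent of each other or of the comparison with scramble.

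Among the 4 regulators, SREBF2 and INSIG1 each went past 1.5-fold in 1 comparison with scramble. SREBF1, which encodes SREBP-1, had 19094, 17687, 14699 and 14302 normalized counts in TE5 and 31095, 25565 and 27483 in KYSE140. SREBF2, which encodes SREBP-2, had 21018, 21567, 20685 and 13260 counts in TE5, and 32232, 29566 and 29004 in KYSE140. SREBF1 was within 1.5-fold in all comparisons, and SREBF2 went past it only upon CCAT1 silencing (-0.66), in the transcript of 5240 bases that held at least 93.2% of its counts (-0.73).

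SCAP had 5500, 4817, 4403 and 4143 counts in TE5 and 9154, 8847 and 8675 in KYSE140. INSIG1, itself a known SREBP target, had 6075, 7490, 5895 and 5339 counts in TE5, and 23036, 24185 and 13954 in KYSE140. SCAP was within 1.5-fold throughout, and INSIG1 was past it in the SOX2-silenced KYSE140 library (-0.72), where SREBF1 (-0.18), SREBF2 (-0.15) and SCAP (-0.08) stayed near scramble. SREBF1 transcripts from the upstream start at chr17:17740300-17740316 (hg19, minus strand), the start of the SREBP-1a form, held between 68.8% and 85.3% of the gene's counts in the 7 libraries. Their counts were 16283, 14411, 11550 and 11164 in TE5 and 23201, 17592 and 20995 in KYSE140.

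TP63- and SOX2-silenced libraries of a line shared a lane, so their comparison does not carry the lane difference. In KYSE140, the TP63-silenced library was above the SOX2-silenced one for 17 of 19 sterol genes, with a median log2 difference of 0.70, where all genes had 0.0064. Of genes with at least 500 counts, 56.8% were below 0 in this comparison. There 13 genes of the list were higher past 1.5-fold and 1 (ELOVL6) lower, against 19.1% higher and 14.1% lower among genes with at least 10 counts and 7.91% and 10% among those with at least 500. In TE5 the sterol median was -0.04 and the fatty acid median -0.41, and 4 genes of the list were higher and 5 lower past 1.5-fold, against 23.8% and 15% of genes with at least 10 counts and 9.98% and 13.8% of those with at least 500. HSD17B7 was higher with TP63 shRNA past 1.5-fold in both lines (0.79 and 1.49), as were TM7SF2, STARD4 and ACSS2. ELOVL6 was lower past 1.5-fold in both (-1.37 and -0.83), but level in KYSE140 on the TPM scale. EBP (-1.15 and -0.39), FADS1 (-0.78 and -0.43), ACLY (-0.69 and -0.14) and SCD (-0.67 and 0.48) were lower past 1.5-fold in TE5 alone. SCD was above 0 in KYSE140, within 1.5-fold. ACACA (-0.41 and -0.43) was below 0 in both lines but within 1.5-fold.

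Over both lines, edgeR's quasi-likelihood test of TP63- against SOX2-silenced libraries called ELOVL6 alone among the 32 genes, at -1.07 (SE 0.17, adjusted p 0.070, on counts), against 1.33% of all features lower and 0.88% higher. The call was lost without the TE5 scramble library (adjusted p 0.215), the KYSE140 scramble library (0.213) or the SOX2-silenced TE5 library (0.156), and without the cell line in the fit (0.99994). HSD17B7, at 1.15 (SE 0.24), had an adjusted p of 0.111. At an unadjusted p under 0.05, 7 were higher and 4 lower, against 7.59% and 8.42% of features. DESeq2 called 10 of the 32, where it called 1025 features higher and 1766 lower of 17375 with an adjusted p.

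**Figure D4:**
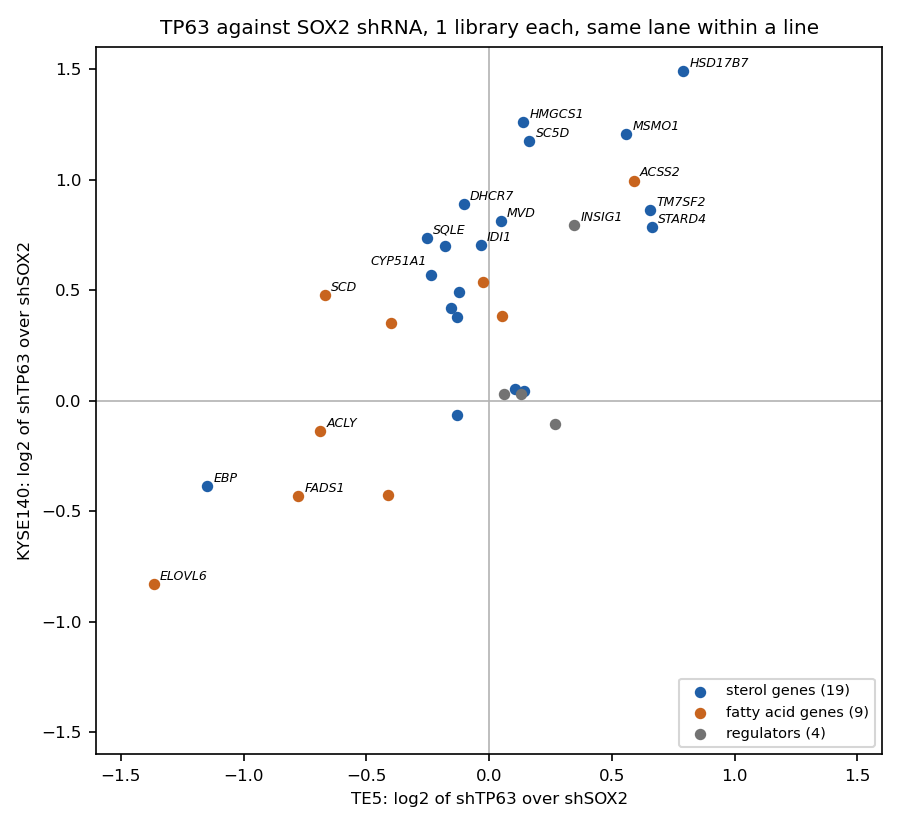
Log2 ratio of the TP63-silenced over the SOX2-silenced library in TE5 (horizontal axis) and KYSE140 (vertical axis) for the 32 genes, 1 point per gene, coloured by role and named where past 1.5-fold in either line. Sterol genes lie above 0 in KYSE140 (17 of 19) and around 0 in TE5 (median -0.04), and ELOVL6 is at the lower left.

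A further list of 40 genes of sterol and fatty acid handling, from transport to oxidation, served as surroundings. In the order TE5 shTP63, TE5 shSOX2, TE5 shCCAT1, KYSE140 shTP63 and KYSE140 shSOX2, 5, 3, 2, 3 and 6 of them were lower past 1.5-fold and 4, 1, 2, 1 and 3 higher, with 40 measured in the first 4 comparisons and 39 in the last. In that order, 14.5%, 11.6%, 11.5%, 9.89% and 12.8% of all genes with at least 10 counts were lower past 1.5-fold. Of those with at least 500 counts, 15.4%, 5.52%, 5.33%, 5.54% and 5.46% were. The shares higher were 24.3%, 12.9%, 20%, 16.1% and 13.8%, and 8.39%, 3.38%, 2.73%, 2.99% and 4.86%. The median of this further list in KYSE140 upon SOX2 silencing was -0.13. Of its 39 measured genes 23 were below scramble, against 42.6% of genes with at least 500 counts.

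HACD3, a dehydratase of fatty acid elongation, was lower upon SOX2 silencing in both lines (-1.46 and -1.37), and upon TP63 silencing (-0.91 and -0.75). ABCG1, which exports cholesterol, was lower upon SOX2 silencing (-1.49 in TE5 and -0.93 in KYSE140) and TP63 silencing (-0.58 and -0.96), the first of the latter being at the edge of 1.5-fold. ACSL5, an acyl-CoA synthetase, was higher upon TP63 silencing in TE5 (1.26) and had 8.1, 15.4 and 0 counts in KYSE140.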

How the data were processed

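Total RNA of the 7 libraries was sequenced by the authors as 100 bp paired-end reads and pseudoaligned with Kallisto to the hg19 Ensembl transcriptome. The authors deposited for each transcript an estimated count, which is not scaled between libraries, and a TPM value. The version of Kallisto is not given in the sources used here.

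Transcripts were assigned to genes by ID with GENCODE 44 on hg19 (182863 transcripts, 93.6% of counts) or, where the ID was absent, through flanking genes (7011 transcripts, 3.72%). ACACA shares no ID with that annotation and was found by a run of 23 transcripts holding 13 of its 22 distinct reference lengths (2 in the next best run). The remaining 6457 transcripts (2.69% of counts) stayed unassigned. For ACAT2 and ACSS2, 74.3% and 52.9% of counts came from transcripts not matched by ID, for HSD17B7 31.9%, and for ACACA all of them. Counting across genes with shared words, antisense partners or overlaps cannot be separated. Shared words were sought within GENCODE 44, which is not the transcriptome the authors aligned to. Which of the sharing genes took part in that alignment was not checked.

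Gene sums were normalized with TMM (edgeR 4.0.16, R 4.3.3). A gene entered a pairwise comparison where either library held at least 10 counts, and 95% intervals were exact binomial intervals of the 2 counts. The fit over both lines used counts rounded to whole numbers, filterByExpr, 26249 features (23504 genes, and 2745 unassigned transcripts kept as single features), edgeR's quasi-likelihood test and Benjamini-Hochberg adjustment over all features. It treats the 2 lines as replicates, so its p-values measure the spread between lines and not between cultures. The cell line is the pairing of the samples and was the block. DESeq2 1.42.0 was an alternative, and the scripts were tested on simulated data. The rule for the 32 genes used no measured value, but it, the lists and the tests were written with earlier results of these data known. Every gene past 1.5-fold in any comparison, and every regulator, is given by library. Genes of the 40-gene list were named where past 2-fold with at least 100 counts. Python 3.11.15 with numpy 2.4.6, pandas 2.3.3 and scipy 1.17.1 was used. A result for 1 gene of that list is not reported here.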

Additional observations from a re-analysis of the deposited data

How the results depend on the processing

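Among 279 results and 2280 alternative values, no value past its threshold changed sign, although medians under it did (TP63 silencing in both lines and CCAT1 silencing). Of the 38 values past 1.5-fold, 38 stayed so with DESeq2 size factors and with a pseudocount of 10, 28 with TPM and 21 without scaling. Matching by ID alone and adding the transcript next to ACACA were chosen after seeing the data. The sterol and fatty acid medians moved as follows, where the cause was not tested. Without scaling they were 0.24 and -0.036 (TE5 shTP63), -0.00109 and 7.55e-05 (TE5 shCCAT1), 0.31 and 0.21 (KYSE140 shTP63) and -0.76 and -0.18 (KYSE140 shSOX2), which moved the median of all genes by up to 0.58. With TPM they were, in the same order, 0.058 and -0.18, -0.24 and -0.15, -0.20 and -0.29, and -1.03 and -0.53, and the fatty acid median of TE5 shSOX2 was -0.031. With DESeq2 size factors they were -0.42 and -0.42 (TE5 shCCAT1) and -0.31 and -0.41 (KYSE140 shTP63). By ID alone, without ACACA, the fatty acid median was -0.50, -0.12, -0.31, -0.47 and -0.55 in the order of the heatmap, and the sterol median of KYSE140 shSOX2 -0.98. With the adjacent ACACA transcript it was -0.43, -0.14 and -0.28 in TE5.

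The edgeR test called 1 of the 32 genes for TP63 against SOX2 silencing, and 5 with genes of at least 1 count kept, 10 with DESeq2, 0 without cell line as replicate block and 0 to 5 when 1 library was left out. For SOX2 silencing it called 0, and 1, 3, 0 and 0 to 2, and for TP63 silencing 0, and 3, 6, 0 and 0 to 3. Over all features the main fit called 0 upon TP63 silencing (1410 higher and 2038 lower at an unadjusted p under 0.05, and 536 and 1501 with DESeq2), 14 upon SOX2 silencing (237 and 487 with DESeq2) and 581 between the shRNAs.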
